A study of Mus musculus with 6 samples.

Results

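The genes Il1a, Il1b, Il1rn, Il18, Tnf, Nlrp3, Casp1 and Pycard were followed across the myeloid states and the other cell types of the mouse spinal cord. They are 8 of the 18792 genes in the deposited single-cell table, were chosen by name, and all 8 were found in it. The table holds 13614 cells from 6 libraries, which according to the labels came from WT control mice (1 library), Nd6 control mice (1), WT EAE mice (2) and Nd6 EAE mice (2). In Nd6 mice the mitochondrial gene of that name, which encodes part of respiratory complex I, is altered by a point mutation, and EAE is an autoimmune inflammation of the CNS induced by immunization with a MOG peptide. In all groups, inhibitors of transcription were given at perfusion to limit changes in RNA during dissociation. No label assigned a cell to a library. The cells were therefore treated as 1 pooled sample, no genotype or disease comparison was made and no test was run. The cells' names fall into 6 sets by a suffix of the barcode, called A to F here from the largest (4633 cells) to the smallest (809 cells). The paper gives the numbers of WT and Nd6 cells, but no attempt was made to assign sets to a genotype by comparing set sizes with them. Whether the sets differ in genotype or disease state was not tested, so a difference between sets may also be one of genotype or disease state. Of the 13596 barcodes, 18 occurred in more than 1 set.

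IL-1α and IL-1β, encoded by Il1a and Il1b, are cytokines that act through the same receptor, and Il1rn encodes the antagonist that occupies this receptor without signalling. Tnf encodes another early cytokine of activated myeloid cells and T cells. IL-1β and IL-18 are made as inactive precursors, and the inflammasome, in which the sensor NLRP3 recruits the protease caspase-1 (Casp1) through the adaptor ASC (Pycard), cleaves them. Transcription of Il1b and Tnf is low in resting microglia and is induced through NF-κB after sensing of damage or microbes, whereas Il18 is widely transcribed without a stimulus.

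In the GRCm38 build (GENCODE vM21), Il1a (chr2:129299610-129309972, minus strand) and Il1b (chr2:129364570-129371139, minus strand) are protein-coding neighbours with 54597 bases between them. Il1rn lies on the plus strand of the same chromosome at chr2:24336853-24351494, and Tnf lies at chr17:35199381-35202007 on the minus strand. The other members are Il18 (chr9:50554827-50581840, plus), Casp1 (chr9:5298517-5307265, plus), Nlrp3 (chr11:59541568-59566956, plus) and Pycard (chr7:127989708-127993867, minus). The 250 bases before the annotated start are shown for Il1b, Tnf and Il1rn, since these were the members nearly absent from homeostatic microglia-like cells, and for Il1a, the IL-1 gene that was present there. The windows come from RefSeq (GRCm38.p6), which held 11 start sites for the 8 members, and are written 5′ to 3′ on the strand of the gene.
Il1b, chr2:129371140-129371389, minus strand: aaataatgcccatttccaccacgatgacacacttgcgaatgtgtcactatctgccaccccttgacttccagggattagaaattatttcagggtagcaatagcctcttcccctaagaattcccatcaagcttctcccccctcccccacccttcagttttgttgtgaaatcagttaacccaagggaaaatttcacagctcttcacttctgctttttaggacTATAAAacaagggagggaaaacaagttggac
Tnf, chr17:35202008-35202257, minus strand: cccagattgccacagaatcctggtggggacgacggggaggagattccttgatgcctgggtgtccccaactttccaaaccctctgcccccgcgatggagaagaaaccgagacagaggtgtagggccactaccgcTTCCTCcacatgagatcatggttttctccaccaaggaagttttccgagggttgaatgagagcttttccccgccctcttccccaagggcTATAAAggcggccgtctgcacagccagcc
Il1rn, the last of its 3 annotated starts, chr2:24345121-24345370, plus strand: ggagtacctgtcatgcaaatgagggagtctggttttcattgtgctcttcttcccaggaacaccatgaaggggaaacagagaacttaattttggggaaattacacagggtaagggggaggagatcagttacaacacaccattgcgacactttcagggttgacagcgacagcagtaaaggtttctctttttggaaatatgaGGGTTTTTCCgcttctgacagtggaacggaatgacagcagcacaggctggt
Il1a, chr2:129309973-129310222, minus strand: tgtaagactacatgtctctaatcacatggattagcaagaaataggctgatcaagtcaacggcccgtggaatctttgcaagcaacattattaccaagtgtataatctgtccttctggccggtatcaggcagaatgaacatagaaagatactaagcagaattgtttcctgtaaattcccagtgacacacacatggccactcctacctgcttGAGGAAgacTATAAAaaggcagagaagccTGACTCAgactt
Capitals mark matches, on either strand, to the TATA box letters TATAAA, the κB letters (GGG, any 3 bases, TTCC), the AP-1 letters TGANTCA and the PU.1 letters GAGGAA. No matches overlapped in these windows. TATAAA began 31 bases before the start of Il1b, 29 before that of Tnf and 32 before that of Il1a, and occurred in 12.4% of all 32851 upstream windows of this length. It was also present 175 bases before the start of Il18, on the opposite strand, and was not in the windows of Il1rn, Nlrp3, Casp1 or Pycard. The κB letters, found in 4.65% of all windows, matched at 1 member start only, 51 bases before the last start of Il1rn. The AP-1 letters (6.75% of all windows) matched in Il1a and at the first start of Il1rn, and the PU.1 letters (23.3%) in Il1a, Tnf, Casp1, Pycard and the second start of Nlrp3. These matches describe the letters only.

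Cells were grouped into 14 clusters with the 8 genes left out of the clustering, and 10 of these could be named from marker genes. Myeloid cells formed 5 large clusters in which Tyrobp, a signalling adaptor of myeloid receptors, was above 0 in 93.6% of cells, against 46.3% in the non-myeloid clusters. Cluster 2 (2009 cells, led by Hpgd, Slc2a5 and Abca9) carried 12 of 12 homeostatic microglia markers at 2-fold or more, and is called homeostatic microglia-like. Cluster 1 (2433 cells, led by Arg1, F10 and Clec4n) carried 7 of 14 macrophage or monocyte markers and is called macrophage or monocyte-like. That marker list was chosen with earlier results of these data known. It includes Arg1, F10, Clec4n, AA467197, Plac8 and Ly6c2, all among the leading genes of this cluster. Of these, F10, Clec4n, AA467197 and Ly6c2 are not among the macrophage or monocyte markers that the paper lists. The name is therefore a label and not independent evidence of the cell type. The other 3 remained unnamed and are called by their leading genes, cluster 0 (3411 cells) by Ighg2c, Ighg1 and Igkc, cluster 3 (1793 cells) by Apoe, Apoc1 and Hbb-bs, and cluster 4 (1699 cells) by Cox6a2, Isg15 and Eno1. Immunoglobulin genes lead cluster 0 although Tyrobp was above 0 in 98.4% of its cells. Of 12 disease-associated microglia markers, 8 were at 2-fold or more in cluster 0 and 2 in cluster 1. In cluster 0 the same held for 5 of 6 fibroblast, 4 of 5 B cell or plasma cell and 4 of 5 Schwann cell markers. These counts set no limit on the share of cells with the marker. State and barcode set were closely tied, since set B gave 98.9% of cluster 1, set A gave 90.1% of cluster 0, and sets D and E gave 1065 and 876 cells of cluster 2. For clusters 0, 1 and 2, a difference between states therefore cannot be told apart from a difference between sets.

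The members were sparse. Il1a was above 0 in 2.97% of all cells (95% interval 2.69 to 3.27%), Il1b in 3.60% (3.29 to 3.93%), Il1rn in 3.17% (2.88 to 3.47%), Il18 in 3.09% (2.81 to 3.40%), Tnf in 1.48% (1.28 to 1.69%), Nlrp3 in 1.91% (1.69 to 2.15%) and Casp1 in 4.45% (4.11 to 4.81%). Pycard stood apart with 25.6% (24.9 to 26.4%). All intervals are exact binomial intervals (Clopper-Pearson) and cover counting error only, not differences between animals. Beside a count of 0, the share it allows is that of 3 cells in the group, a simpler limit than the exact interval. The value was 1 in most cells that had any, from 78.4% of such cells for Pycard to 98.0% for Tnf, so the share of cells with a value is the measure used here. It is called detection, and genes are not ranked by it against each other, since capture differs between genes.

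**Figure D1:**
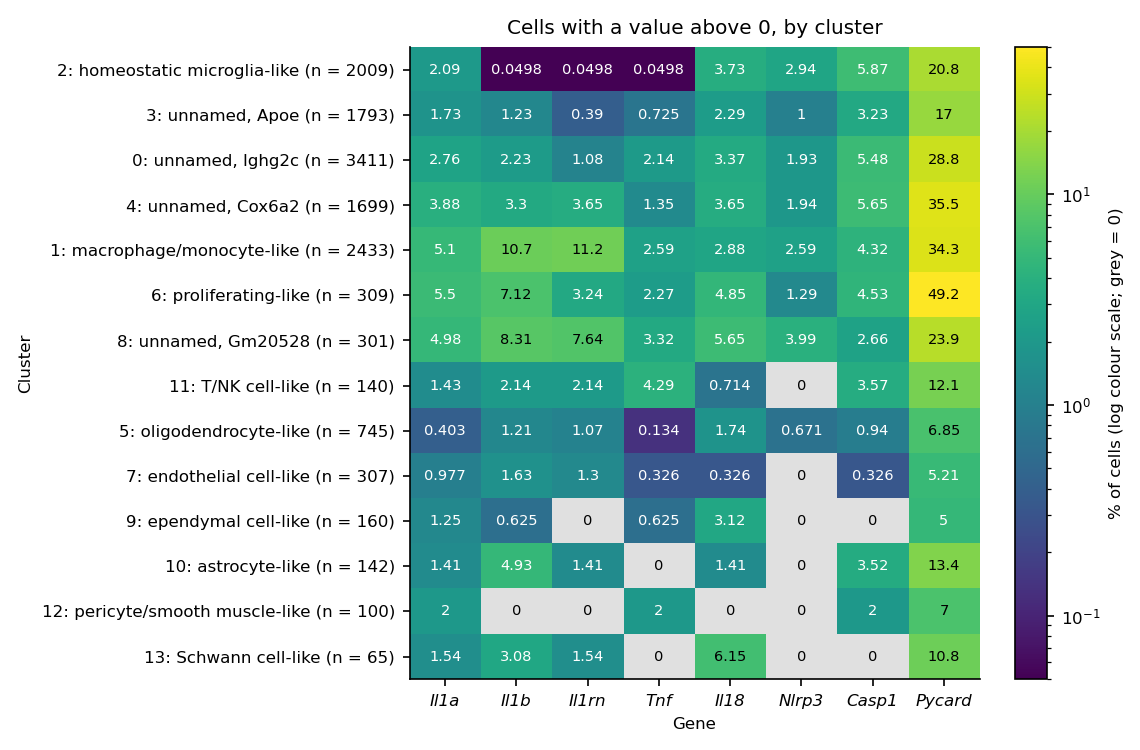
Percentage of cells with a value above 0 for each of the 8 genes (columns) in each of the 14 clusters (rows, with the number of cells), coloured on a log scale with 0 in grey. Il1b, Il1rn and Tnf sit at 0.0498% in the homeostatic microglia-like cluster, where Casp1 reaches 5.87%, and Il1b and Il1rn reach 10.7% and 11.2% in the macrophage or monocyte-like cluster.

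Homeostatic microglia-like cells had the inflammasome genes and Il18, with Il1b, Il1rn and Tnf at or near 0. Il1b, Il1rn and Tnf were each above 0 in 1 of 2009 cells (0.0498%, 0.00126 to 0.277%). In the same cells Il18 was detected in 75 (3.73%, 2.95 to 4.66%), Nlrp3 in 59 (2.94%, 2.24 to 3.77%), Casp1 in 118 (5.87%, 4.89 to 6.99%) and Pycard in 417 (20.8%, 19.0 to 22.6%). Il1a, which shares its receptor and chromosomal neighbourhood with Il1b, was detected in 42 cells (2.09%, 1.51 to 2.82%). Sets D and E, which gave most of these cells, each showed this pattern. In set D, Il1b and Tnf were each above 0 in 1 of 1065 cells and Il1rn in 0, which allows up to 0.282%. In set E all 3 were at 0 of 876 cells, which allows up to 0.342%, while Il18, Nlrp3 and Casp1 were detected in 4.45%, 2.85% and 6.62% of these cells. Set F had only 52 cells in this cluster, none with Il1b, which allows up to 5.77%, beside 11 of 260 cells with Il1b (4.23%, 2.13 to 7.44%) in its cluster 0.

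Macrophage or monocyte-like cells had the highest shares of Il1b and Il1rn among the 5 myeloid clusters. Il1b was detected in 261 of 2433 cells (10.7%, 9.53 to 12.03%) and Il1rn in 273 (11.2%, 9.99 to 12.5%), and neither interval overlapped that of another myeloid cluster. Il1a was detected in 5.10% (4.26 to 6.05%) and overlapped only cluster 4 at 3.88% (3.02 to 4.92%). Tnf, at 2.59% (1.995 to 3.30%), overlapped cluster 0 at 2.14% (1.68 to 2.68%) and, barely, cluster 4 at 1.35% (0.860 to 2.02%). Il18 (2.88%), Nlrp3 (2.59%) and Casp1 (4.32%, 3.54 to 5.20%) were not above their homeostatic shares, with overlapping intervals in all 3 cases. Pycard at 34.3% (32.4 to 36.2%) exceeded the homeostatic share and overlapped cluster 4 at 35.5% (33.2 to 37.8%).

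In the remaining myeloid states Il1b and Il1rn lay between these 2 clusters. In the Ighg2c-led cluster 0, Il1b was detected in 2.23% (1.76 to 2.78%), Il1rn in 1.08% (0.765 to 1.49%) and Tnf in 2.14%. The Apoe-led cluster 3 had a lower mean Apoe value than cluster 0, at 87.8 against 107. Of its cells, 72.2% fell in the lowest tertile of detected genes. Most members were low in cluster 3, with Il1b at 1.23%, Il1rn at 0.390%, Tnf at 0.725% and Nlrp3 at 1.00% (0.596 to 1.58%). Nlrp3 and Casp1 (3.23%, 2.47 to 4.16%) were lower in cluster 3 than in homeostatic cells, with intervals that did not overlap over all cells. Within the low tertile they did overlap, with Casp1 at 2.93% in cluster 3 and 2.81% in homeostatic cells and Nlrp3 at 0.927% and 1.47%. The Cox6a2- and Isg15-led cluster 4 had Il1b in 3.30% (2.50 to 4.26%), Il1rn in 3.65% (2.81 to 4.65%) and Casp1 in 5.65% (4.6005 to 6.86%). The 309 proliferating-like cells, 262 of them from set B, had Pycard in 49.2% (43.5 to 54.9%) and Il1b in 7.12% (4.52 to 10.6%).

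**Figure D2:**
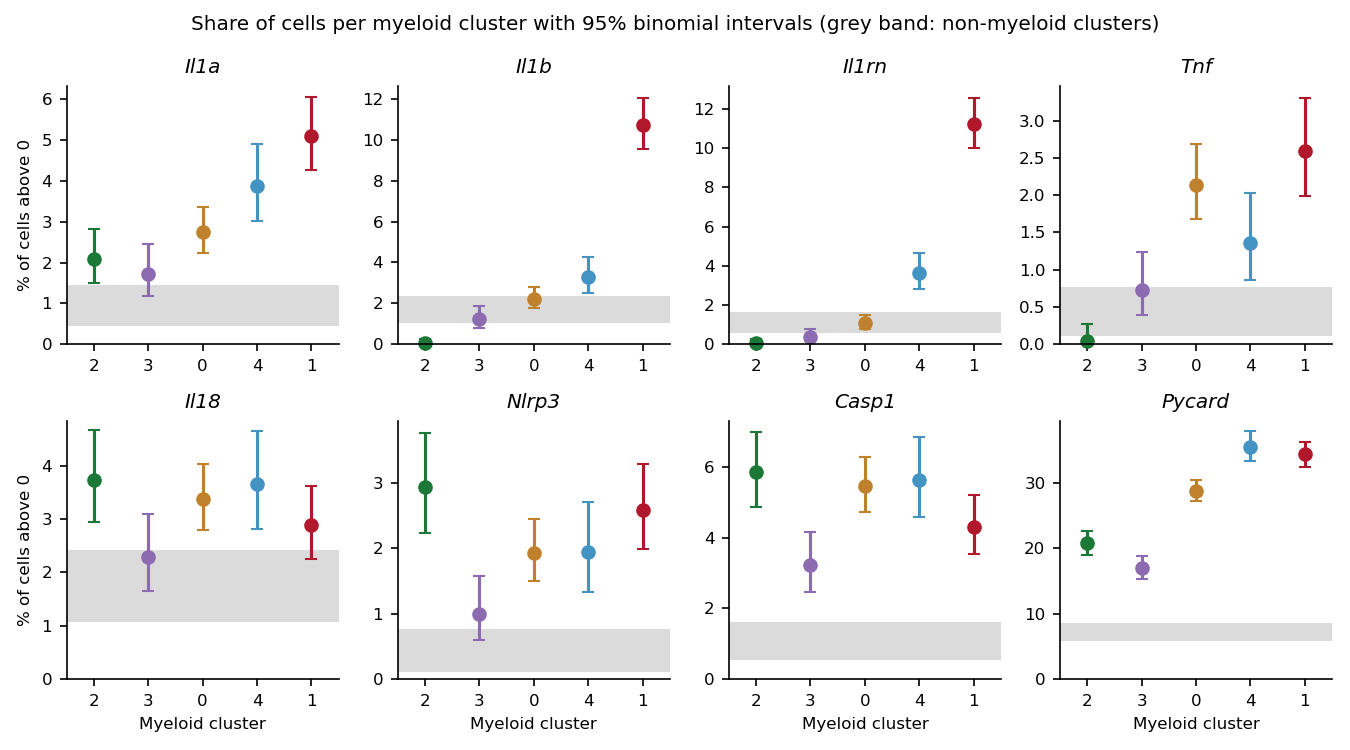
Percentage of cells above 0 (y axis, a scale per gene) in the 5 myeloid clusters (x axis), with exact 95% binomial intervals as bars and the interval over all non-myeloid clusters as a grey band. Il1b and Il1rn climb from 0.0498% in cluster 2 to 10.7% and 11.2% in cluster 1, while the intervals of Il18, Nlrp3 and Casp1 overlap between these clusters.

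Folds of the mean value placed the members against all genes. From cluster 2 to cluster 1, 4 of 8 members (Il1a, Il1b, Il1rn and Tnf) were at least 2-fold higher and none at least 2-fold lower, where 19.3% of the 9013 genes compared were higher. Their median ratio was 1.99, against 1.05 for all genes compared. From cluster 0 to cluster 1, only Il1b (5.22-fold) and Il1rn (10.7-fold) passed 2-fold, where 1.79% of 9912 genes did. Il1rn was itself among the 10 leading genes of cluster 1. From cluster 4 to cluster 1 Il1b and Il1rn passed again, at 2.57-fold and 2.85-fold, where 17.7% of genes did, and no member was 2-fold lower (3.08% of genes). From cluster 3 to cluster 1, Il1a, Il1b, Il1rn, Tnf and Nlrp3 passed, where 15.1% did, and no member was 2-fold lower (0.912% of genes). Cluster 0 over cluster 2 gave 3 of 8 members (Il1b, Il1rn and Tnf) higher and none lower, where 32.1% of all genes were higher and 4.18% lower, a share of members close to the background. Cluster 4 over cluster 2 gave 5 of 8 (9.05% of genes), with Pycard at 2.09-fold and Il1a at 2.06-fold beside Il1b, Il1rn and Tnf. In cluster 3 over cluster 2, 6 members were frequent enough to be compared, of which Il1b was higher (10.4% of genes) and Nlrp3 was lower at 0.310-fold (24.5% of genes). Ratios of Il1b, Il1rn and Tnf over cluster 2 rest on 1 cell there and are not given.

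Detection rose with the number of genes per cell, so the states were also compared within tertiles of all cells by detected genes (limits 453 and 643 genes). In the low tertile Casp1 was detected in 2.81% of homeostatic microglia-like cells and 3.44% of macrophage or monocyte-like cells. In the high tertile the order turned, with Casp1 at 10.4% (7.80 to 13.4%) of 482 homeostatic cells and 5.20% (3.70 to 7.07%) of 731 macrophage or monocyte-like cells. Il18 stood at 7.47% (5.29 to 10.2%) against 4.10% (2.79 to 5.81%) in that tertile, and Nlrp3 at 5.60% (3.72 to 8.05%) against 3.28% (2.11 to 4.85%). Only the Casp1 intervals did not overlap. Il1b behaved otherwise, at 0 of 818 and 0 of 709 homeostatic cells in the low and middle tertiles, and at 8.28% and 10.9% of macrophage or monocyte-like cells there.

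Set B carried most of the Il1b and Il1rn in the table. It held 29.3% of the cells, yet 76.7% of the cells with Il1b and 85.8% of those with Il1rn, compared with 31.4% of the cells with Il18 and 28.7% of those with Casp1. The excess was not confined to myeloid cells. In the non-myeloid clusters of set B (oligodendrocyte-, endothelial-, ependymal-, astrocyte-, pericyte- and Schwann cell-like), Il1b was above 0 in 21 of 322 cells (6.52%, 4.08 to 9.80%) and Il1rn in 15 (4.66%, 2.63 to 7.57%). In the same clusters of the other 5 sets Il1b did not exceed 0.474% and Il1rn was at 0. This level was taken as the reference for the other cells of set B, and its source was not tested. The median number of detected genes was 418.5 in these reference cells and 559.5 in the macrophage or monocyte-like cells of set B. Against it, the macrophage or monocyte-like cells of set B stood at 10.8% for Il1b (9.59 to 12.1%), an interval that overlaps that of the reference, and at 11.3% for Il1rn (10.1 to 12.7%), which does not overlap. Cluster 4 cells of set B, at 5.70% for Il1b (4.16 to 7.61%) and 6.10% for Il1rn (4.50 to 8.05%), had intervals that overlapped those of the reference for both genes.

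**Figure D3:**
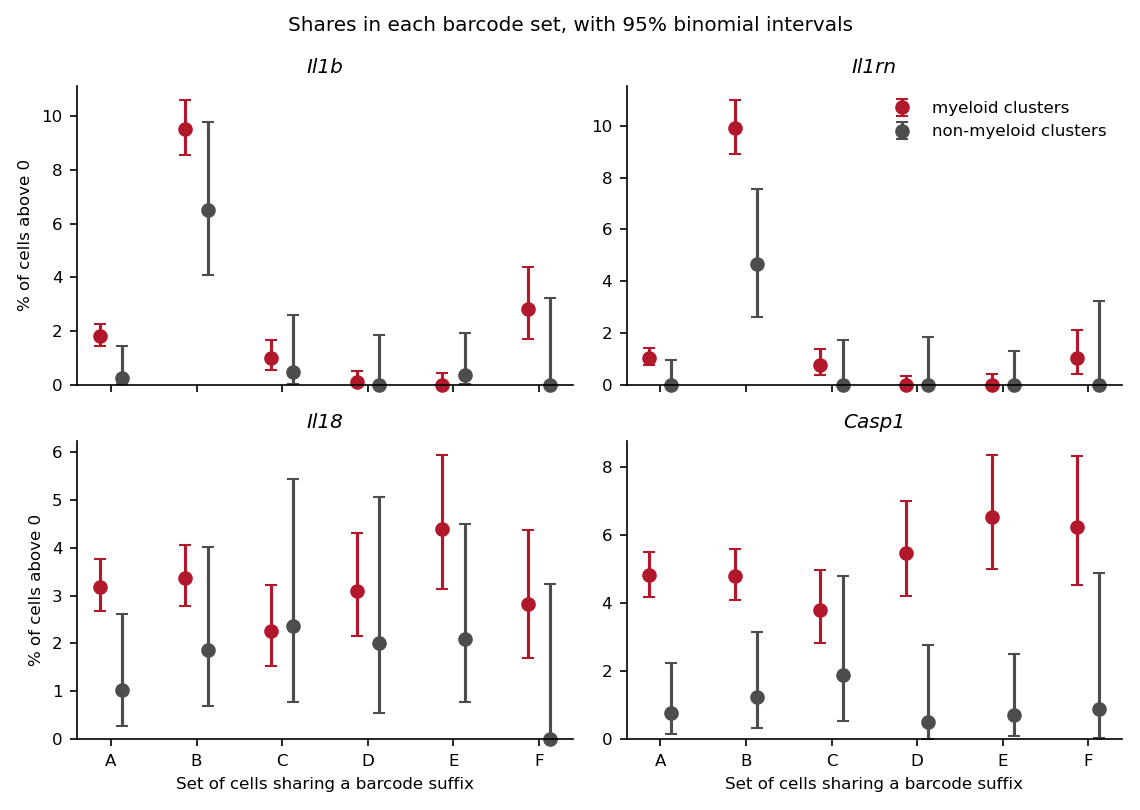
Percentage of cells above 0 for Il1b, Il1rn, Il18 and Casp1 (y axis) in the myeloid (red) and non-myeloid (grey) clusters of each barcode set (x axis), with exact 95% binomial intervals. Il1b and Il1rn are raised in both groups of clusters in set B, with 6.52% of its non-myeloid cells above 0 for Il1b, while Il18 and Casp1 differ little between sets.

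Numbers of detected genes bear on this comparison, because the non-myeloid cells of set B were mostly in the low tertile. There Il1b was above 0 in 8.33% of 180 non-myeloid cells (4.74 to 13.4%) and 8.23% of 632 macrophage or monocyte-like cells. In the middle tertile the shares were 4.35% (3 of 69 cells) and 11.1% (116 of 1049), and in the high tertile 4.11% (3 of 73) and 12.7% (92 of 725). Il1rn was higher in the macrophage or monocyte-like cells in each tertile, at 8.07% against 4.44% in the low tertile, 11.5% against 4.35% in the middle tertile and 13.9% against 5.48% in the high tertile. With only 180, 69 and 73 non-myeloid cells, the Il1rn intervals overlapped in each tertile. Pycard, for which the reference was 13.3%, 17.4% and 12.3% of non-myeloid cells, was detected in 22.5%, 34.3% and 45.1% of macrophage or monocyte-like cells. The summed value of Il1b per summed value of Pycard was 0.268 in the macrophage or monocyte-like cells of set B, 0.123 in its cluster 4 and 0.375 in its non-myeloid clusters.

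**Figure D4:**
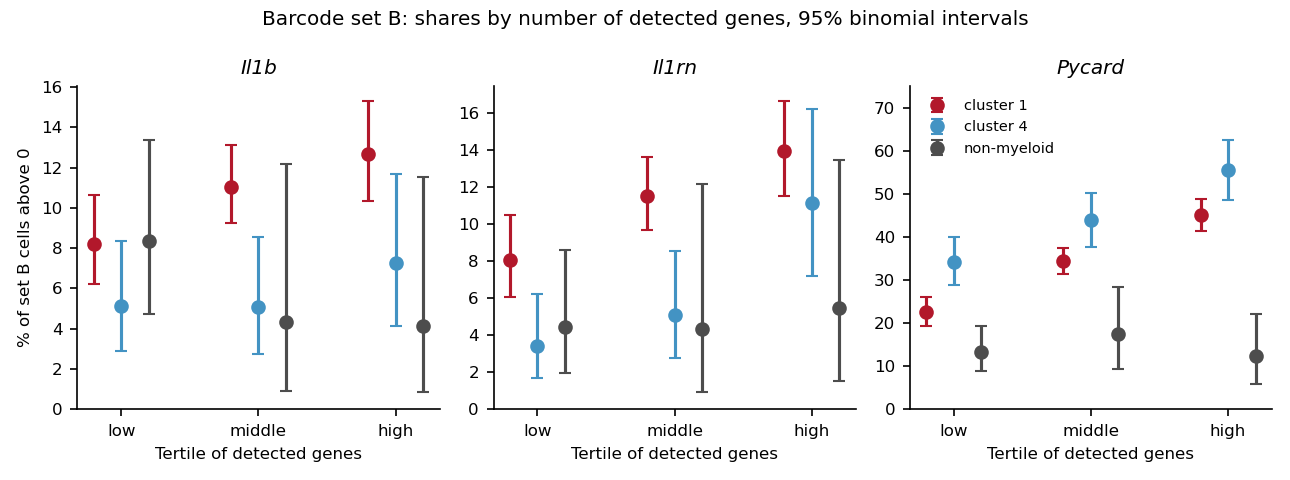
Percentage of set B cells above 0 for Il1b, Il1rn and Pycard (y axis) in cluster 1 (macrophage or monocyte-like), cluster 4 and the non-myeloid clusters, by tertile of detected genes (x axis), with exact 95% binomial intervals. In the low tertile the Il1b shares of cluster 1 (8.23%) and the non-myeloid clusters (8.33%) coincide, while Pycard separates them in each tertile.

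Outside set B the cytokines were scarce but not absent in the other myeloid states. In set A, whose non-myeloid cells had Il1b in 1 of 389 and Il1rn in 0, cluster 0 had Il1b in 2.11% (1.64 to 2.69%), Il1rn in 1.11% (0.767 to 1.54%) and Tnf in 2.28% (1.78 to 2.87%) of 3075 cells. The median number of detected genes was 413 in these non-myeloid cells and 685 in cluster 0, and these shares are not split by tertile. Cluster 4 had Il1b in 5 of 394 cells in set A (1.27%), 5 of 301 in set C (1.66%) and 3 of 210 in set F (1.43%), all below its 5.70% in set B. In contrast, Casp1 was detected in 3.79 to 6.52% of the myeloid cells of every set and in 0.503 to 1.90% of the non-myeloid cells. Over all sets, the median number of detected genes was 552 in the myeloid clusters and 424 in the non-myeloid clusters. Il18 was above 0 in 2.27 to 4.39% of the myeloid cells of the 6 sets, and its non-myeloid share was close in set C at 2.37% and reached 0 of 112 in set F.

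Most of the few cells with much Il1b lay outside the large myeloid clusters. Only 6 cells had an Il1b value of 5 or more, 5 of them in cluster 8 (301 cells, led by Gm20528, Gm16337 and Gm16599) and the other, with a value of 10, in cluster 4, and 5 were in set B. The highest, with a value of 15, came from set A and had S100a8 and S100a9, alarmins abundant in neutrophils, at 84 and 91. Another with an Il1b value of 9 had both at 86. The cells with Il1b values of 12 and 10 had 0 neutrophil markers. Those with values of 7 and 5 had 1 and 2, and S100a8 was at 0 in these cells too. At the finer Louvain resolution of 1.0, cluster 8 gave up 40 cells that carried 7 of 9 neutrophil markers at 2-fold or more, 34 of them from set B. In these neutrophil-like cells Il1b was detected in 11 (27.5%, 14.6 to 43.9%), Il1rn in 13 (32.5%, 18.6 to 49.1%) and Tnf in 7 (17.5%, 7.34 to 32.8%). They held 8.53% of the summed Il1b and 7.59% of the summed Il1rn of all 13614 cells, but 0.153% of the summed Casp1. Pycard was detected in 8 of them (9.05 to 35.6%) and Casp1 in 1 cell. Il1f9, the RefSeq symbol of the IL-1 family cytokine Il36g, was among their leading genes and above 0 in 13 of them, of 51 cells in the table. Both Il1b and Il1rn also remained in the other 93 cells of cluster 8 from set B, at 14.0% (7.66 to 22.7%) and 9.68% (4.52 to 17.6%), with intervals that overlap those of the non-myeloid cells of set B.

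Gating on lineage markers gave cell types without clustering, and several gates were mixed. A cell passed a gate with 3 markers of the lineage, 8409 cells passed the myeloid gate, and 210 cells that passed several non-myeloid gates were left out. Of 1338 cells in the oligodendrocyte gate, 72.6% lay in myeloid clusters, as did 61.9% of the 672 in the endothelial gate, 28.1% of the 114 in the astrocyte gate and none of the 105 in the ependymal gate. Pycard was accordingly detected in 23.5% of oligodendrocyte-gated cells, in 29.0% of those in myeloid clusters, and in 7.92% (5.28 to 11.3%) of the 341 in the oligodendrocyte-like cluster. Il1b fell the same way, from 2.62% of the gate to 4 of 341 cells (1.17%, 0.321 to 2.98%) within the cluster. Among gated cells Il18 hardly moved, at 2.99% of the gate and 2.93% (1.42 to 5.33%) within the cluster. Of the 207 gated cells with Tyrobp and Csf1r at 0, 3.38% (1.37 to 6.84%) had Il18. Over all 745 cells of the oligodendrocyte-like cluster, gated or not, Il18 was detected in 13 (1.74%, 0.932 to 2.97%). Ependymal-gated cells, none of them in a myeloid cluster, had Il18 in 4 of 105 (3.81%, 1.05 to 9.47%) and Il1b in 0, which allows up to 2.86%. Endothelial-gated cells within their cluster had Il18 in 0 of 248, which allows up to 1.21%, Il1b in 3 and Pycard in 4.44% (2.23 to 7.80%).

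A few lymphoid cells had Tnf. In the 140 T cell or NK cell-like cells Tnf was above 0 in 6 (4.29%, 1.59 to 9.09%), among them the table's highest Tnf value of 5. In the non-myeloid clusters Tnf was above 0 in 5 of 1519 cells (0.329%, 0.107 to 0.766%). The median number of detected genes was 734 in the T cell or NK cell-like cells and 424 in the non-myeloid clusters. Among the myeloid clusters, the T cell or NK cell-like interval overlapped those of clusters 0, 1 and 4 and not those of clusters 2 and 3. In the T cell or NK cell gate Tnf was above 0 in 5 of 102 cells, and in 4 of the 45 with Tyrobp and Csf1r at 0 (8.89%, 2.48 to 21.2%). Il1b was above 0 in 3 and Il18 in 1 of the 140 cells, and Nlrp3 in 0, which allows up to 2.14%. Casp1 was above 0 in 5 (3.57%, 1.17 to 8.14%).

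Co-detection of the members in single cells was rare. Of all cells, 62.0% had none of the 8, 30.6% had 1, 6.53% had 2 and 115 (0.845%) had 3 or more, with at most 5. Only 1 cell had Nlrp3, Casp1 and Pycard together, a homeostatic microglia-like cell, and it had neither Il1b nor Il18. Casp1 and Il1b met in 17 cells, Casp1 and Il18 in 21, and Nlrp3 and Il1b in 13. Of the cytokines Il1a, Il1b and Tnf, 7.67% of cells had at least 1, 48 cells had at least 2 and 3 cells had all. These counts over all cells were not set against the numbers expected from the shares of the single genes, which were low for most members. At this depth of values a gene absent from a cell is not shown to be unexpressed there.

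Odds ratios of co-detection were mostly closer to 1 within states than over all myeloid-gated cells. For Il1b and Il1rn, 27 of 8409 myeloid-gated cells had both, where 12.4 would be expected from their shares (odds ratio 2.40). Within cluster and gene tertile, 31.8 would be expected and the odds ratio was 0.810. Over the 28 pairs the median odds ratio was 1.43 without strata, where 25 pairs were above 1, and 1.10 within strata, where 18 pairs were above 1 and 2 above 2. Tnf and Nlrp3 had the highest, with 8 cells against 2.86 expected (3.09), followed by Il18 and Tnf with 9 against 4.66 (2.05). Il1b and Il18 met in 20 cells against 12.4 expected (1.82). Il1rn and Il18 were lowest, with 8 cells against 12 (0.601). Casp1 and Pycard, partners in the inflammasome, met in 145 cells against 135 expected (1.12), and Nlrp3 and Casp1 in 8 against 11.3 (0.691). Genes most like each member by the same odds ratio were mostly found in nearly all cells, for example Apoe, Rplp1 and Spp1 for Il1b and Lyz2, Malat1 and Tpt1 for Il1rn, where observed and expected cells hardly differed (326 against 325 for Il1b and Apoe).

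**Figure D5:**
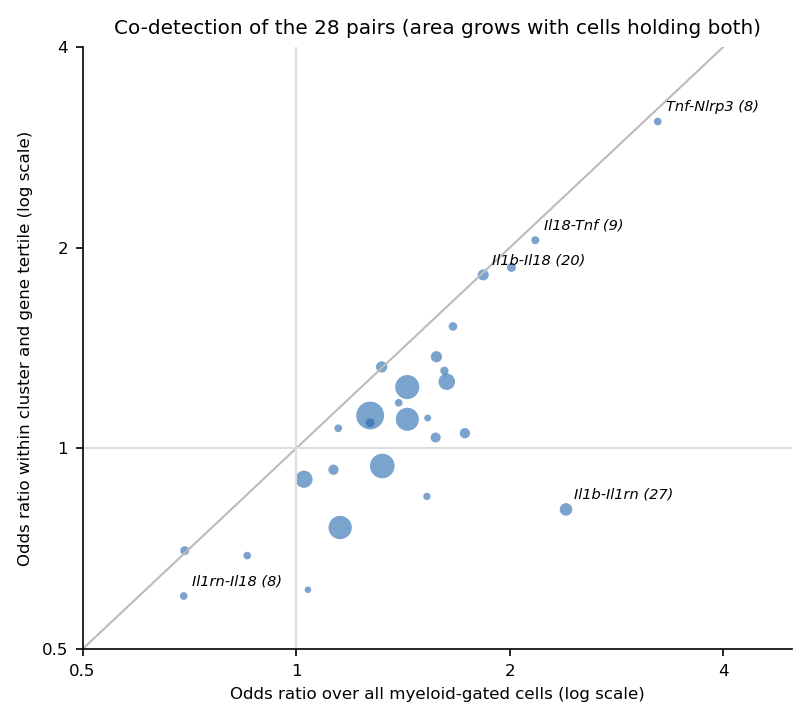
Odds ratios of co-detection for the 28 pairs over all 8409 myeloid-gated cells (x axis, log scale) and within cluster and gene tertile (y axis, log scale), with the area of a point growing with the number of cells that hold both genes. Points below the diagonal lose association within strata, most clearly Il1b with Il1rn (2.40 to 0.810), while Tnf with Nlrp3 (8 cells) is at 3.09.

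Other genes of the IL-1, TNF and inflammasome pathways were read from a list of 61, of which 60 were found under the listed symbol and 24 exceeded 10% of cells in some cluster. The share of all genes that did so is not given. Shares of the list genes are given without intervals, and those of homeostatic microglia-like cells come first where 2 are given. Il6ra (IL-6 receptor) and Txnip, an NLRP3-binding protein, were higher in homeostatic microglia-like cells, at 13.4% and 23.2%, than in macrophage or monocyte-like cells, at 4.15% and 7.64%. Nek7, a kinase needed for NLRP3 activation, was at 16.6% and 9.82%, and Tnfaip8l2, an inhibitor of innate signalling, at 14.1% and 8.06%. The reverse order held for the nucleic acid sensors Ifi204 (1.64% and 10.5%) and Zbp1 (0.448% and 9.66%), the TNF-induced gene Tnfaip2 (0.747% and 8.51%), the ATP-gated channel P2rx4 (2.39% and 9.82%), and the NF-κB genes Nfkb1 (6.72% and 13.3%) and Nfkbia (5.18% and 11.2%). Cd14, a co-receptor for bacterial lipopolysaccharide, was at 12.9% and 17.1%. In the mean values, 25 of the 53 list genes compared were at least 2-fold higher in cluster 1 than in cluster 2, where 19.3% of all genes were higher. At least 2-fold lower were 4 of the 53, Il6ra and Txnip among them, where 10.4% of all genes were lower. From cluster 0 to cluster 1, 4 of 53 were higher (Il1r2, Tnfaip2, Mefv and Zbp1) and 3 lower (Il1r1, Il33 and Gsdme), where 1.79% of all genes were higher and 12.5% lower.

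Receptors lay partly outside the myeloid cells. Il18r1 and Il18rap, the subunits of the IL-18 receptor, were detected in 37.1% and 15% of T cell or NK cell-like cells, and Il18r1 in 0 of 2009 homeostatic microglia-like cells. Il1r1, the signalling receptor for IL-1, peaked in endothelial cell-like cells at 12.7%, where the NF-κB inhibitor and target Nfkbia also peaked at 33.9%. Aim2, a DNA sensor, peaked in T cell or NK cell-like cells at 20.7%. Il18bp, which encodes a secreted inhibitor of IL-18 and was singled out after its values were seen, followed Il1rn in its absence from homeostatic cells, at 0.0498% there, 5.80% in cluster 1 and 6.39% in cluster 0. Unlike Il1rn it was as frequent in the myeloid cells of set A (6.21%) as in those of set B (5.55%), and its share in non-myeloid cells was 2.06% in set A and 4.04% in set B.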

How the data were processed

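Spinal cord cells were profiled by droplet-based 3' scRNA-seq. Reads were mapped by the authors to GRCm38 in Cell Ranger 7.1.0, with introns counted, and libraries were combined and cells filtered in Seurat 4.3.0.1. The deposited table holds a whole-number score for each gene and cell. The totals per cell (687 to 1578, median 962, with 138 to 1287 genes detected, median 547) do not vary as UMI counts would, so the values were taken as a score, no count model was used and sequencing depth is unknown. Thinning to equal depth was replaced by tertiles of detected genes, as the values are not UMI counts. No label maps a cell to a library, so planned comparisons of genotype and disease were not run.

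Values were clustered in Seurat 5.3.0 (R 4.3.3) by log normalization (scale factor 10000), 5000 variable features without the 8 genes, 50 principal components, 20 neighbours and a Louvain resolution of 0.3, without batch correction. No doublet caller was applied; cells passing several non-myeloid gates were left out of gates. A cluster name needed at least 3 of its markers at 2-fold or more and above 0 in at least 10% of cells, and either a marker among its 10 leading genes or 75% of its markers, a rule set after the clusters had been seen. Leading genes had the highest mean in the cluster over that in all other cells, among genes above 0 in at least 10% of the cluster. The myeloid gate needed 4 of 7 markers and no other gate. Folds compared means of the deposited values for genes above 0 in at least 1% of cells of either cluster. Odds ratios of co-detection were pooled by Mantel-Haenszel over cluster and gene tertile. The fold and odds ratio code was tested on simulated data. A result on the pathway list is not reported here. Pathway genes were named if among the 8 most frequent in myeloid-gated cells or above 10% of a cluster, and the 3 genes most like a member by odds ratio. Outside this rule, Il1r2, Il33, Mefv and Gsdme were named with the folds between clusters, and Il18bp after its values were seen. The members and lists were chosen with earlier results of these data known. Alternatives covered the variable features, resolution, filters, value threshold, tertiles, gates, scaling, strata and leaving out sets A or B; tertiles other than the middle, gates within clusters, clusters within sets and leaving out set B were chosen after seeing the data. Python 3.11.15, numpy 2.4.6, scipy 1.17.1 and pandas 2.3.3 were used.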

Additional observations from a re-analysis of the deposited data

How the results depend on the processing

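No paired analysis was possible because no cell could be assigned to a library, and for the same reason fits with a replicate block, fits that leave out a replicate and other count normalizations were not run. Of the shares, counts and odds ratios recomputed under the alternatives, 43 main values and 99 others moved by less than their counting error (or, for counts, 1.5 times), and 21 and 55 moved by more. In homeostatic microglia-like cells the Il1rn share became 0% with the members among the variable features, with 2000 variable features, under the stated filters, at a value of 2 or more, in the low and middle tertiles and without set B, and Il1b became 0% at a value of 2 or more and in those tertiles. At resolution 1.0, where this name took in 2740 cells, the shares were 0.803% for Il1b and 0.657% for Il1rn. In macrophage or monocyte-like cells Il1b stood at 0.781% and Il1rn at 0.247% at a value of 2 or more, at 8.28% and 7.97% in the low tertile, and at 12.6% and 13.8% in the high tertile. Without set B, 27 such cells remained, with Il1b at 3.70% and Il1rn at 0%, and 2 members rather than 4 were at least 2-fold higher than in homeostatic cells, so these results rest on set B. Depth is unknown, and shares near 0.1% rest on single cells.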
